A study of Mus musculus with 12 samples.

Results

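A group of 10 genes of the early secretory pathway and of quality control in the endoplasmic reticulum (ER) was measured in mouse brain sections after 5 hours in aCSF (artificial cerebrospinal fluid) or in aCSF with L-fucose. They were taken by symbol: Sec61b for entry into the ER, Erp44 and Asph for work in its lumen, Rab2a, Bet1, Stx17 and Vps13b for membrane traffic, and Ube2j1, March6 and Ufl1 for degradation and UFMylation. All 10 were found among the 56923 rows of the table, and all 10 passed the filter on low values. The rule for the choice did not use the difference between treatments, but it was made with earlier results of these data known.

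Proteins that are secreted or inserted into membranes enter the ER through the Sec61 channel, are folded and modified in the lumen, and leave in vesicles for the Golgi. Proteins that fail to fold are handed through the ER membrane to ubiquitin enzymes and the proteasome, a route called ER-associated degradation. Neurons depend on the secretory route from the ER through the Golgi for the receptors, channels and adhesion proteins of their synapses. The sugar fucose is joined to glycoproteins along that secretory route.

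The sections came from wild-type mice and the labels name the tissue only as brain. One group of 6 libraries had aCSF alone and the other group of 6 had L-fucose in the same medium, so both shared the incubation. Strain, age, sex and number of animals, brain region and L-fucose concentration were not given in sources used here, which do not say whether libraries came from separate animals, so p-values measure only the spread between these libraries, which may be technical. Values are normalized reads, each row's reads after division by a library size factor, and library totals ran from 9191687 to 18563078 reads.

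Names in this table hold only in part, since many rows do not have the level of the gene they name. The 10 genes lie in 4 regions where row levels follow protein-coding exons, called here in register, with 1085 rows of which 348 were tested. With no displacement of the row positions, the correlation across rows between level and exonic overlap was 0.805 and 0.755 in the regions on chromosome 4, 0.798 on chromosome 6 and 0.790 on chromosome 15. Displaced by more than 2 kb and up to 600 kb, the highest correlations were 0.780, 0.717, 0.731 and 0.719. On chromosome 15 the best fit, 0.822, was at 900 bp, and within 500 bp of none the correlations of the 4 regions lay between 0.701 and 0.819, so this measure does not resolve small displacements. Genes with short exons give a closer view, because a displacement of 300 bp would leave them under 30% of their exonic bases. Of 56 such protein-coding rows 42 had a mean of at least 10, with a median of 79.9 normalized reads per kb of exon over the 56, against 245 of 295 and 90.8 for the other rows. The regions differed in this. In the first region of chromosome 4, which holds Asph, Rab2a, Ube2j1 and Ufl1, 15 of 24 short-exon rows reached 10 against 88 of 107 others, and their median was lower, 39.9 against 100.6. It was higher in the region of Sec61b, Erp44 and Stx17, 149.2 against 92.2, and in that of Bet1, 126.4 against 75.6, and lower in that of March6 and Vps13b, 63.9 against 77.7. A small displacement was therefore not shown to be absent in the first region, nor in that of chromosome 15, where the best fit was at 900 bp.

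The labelled tissue was checked on 16 marker genes in register, none of them at 0 in any library. The neuronal genes Basp1 and Gabbr2 had 23057 and 10672 normalized reads in aCSF and 23588 and 10795 in L-fucose. Of the 7 neuronal markers 4 had a negative log2 difference, with Grin3a at -0.14, Cnr1 at -0.13, Kcnd2 at -0.08 and Nxph1 at -0.06. The highest was Basp1 at 0.03. An unadjusted limma p under 0.05 was found in 0 of the 7, beside 5.96% of all rows. The 3 markers of ependyma, the ciliated lining of the ventricles, were all lower in mean in L-fucose, with log2 differences of -1.30 for Spef2, -0.76 for Cfap206 and -0.80 for Capsl. Their summed level was 259 to 411 in aCSF and 133 to 235 in L-fucose. These ranges of the sum do not overlap, but the groups overlapped for each of the 3 genes taken alone. How often the sums of other sets of 3 rows do not overlap was not examined. For single rows, the groups did not overlap in 0.139% of all rows with L-fucose lower. All 3 ependymal markers had an unadjusted limma p under 0.05 (0.0021, 0.0025 and 0.0082), with adjusted p of 0.775, 0.819 and 0.827. Lower in L-fucose at that unadjusted threshold were 2.79% of all rows and 6.9% of those in register. These 3 genes lie in the regions where a small displacement was not shown to be absent. A displacement of 300 bp would leave at most 0.0% of the exonic bases of Capsl, 6.3% of Cfap206 and 38.6% of Spef2. The names of these 3 rows are less sure for that reason. Spef2 also had as few as 12 reads in a library. The glial marker Ptprz1 was at -0.30 (limma unadjusted p 0.0040, adjusted p 0.827), with 6 of 6 L-fucose libraries below the aCSF median. The choroid plexus marker Prlr was at -0.57, the endothelial Cav1 and Cav2 at -0.01 and -0.22, the microglial Lyn at -0.24 and the fibroblast Col1a2 at 0.24. In bulk tissue, fewer cells of a type and less RNA per cell cannot be told apart, and the part of these marker differences in the values below was not tested.

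The genes differed widely in level. Per kb of exon, in normalized reads and over the 12 libraries, Rab2a was highest at 5276 ± 517 (SD) and Vps13b lowest at 44.6 ± 6.25. Between them came Ube2j1 at 1132 ± 91.6, March6 at 587 ± 37.6, Sec61b at 512 ± 106, Erp44 at 400 ± 62.0, Bet1 at 179 ± 26.1, Asph at 159.4 ± 17.98, Ufl1 at 114 ± 19.5 and Stx17 at 93.7 ± 12.4. Rab2a, Ube2j1 and Vps13b stood clear of their neighbours in every library. The ranges overlapped between March6 and Sec61b, Sec61b and Erp44, Bet1 and Asph, Asph and Ufl1, and Ufl1 and Stx17, and those of Erp44 and Bet1 did not. Exon lengths are unions over all annotated transcripts, which lowers the value of genes with many isoforms such as Asph.

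**Figure D1:**
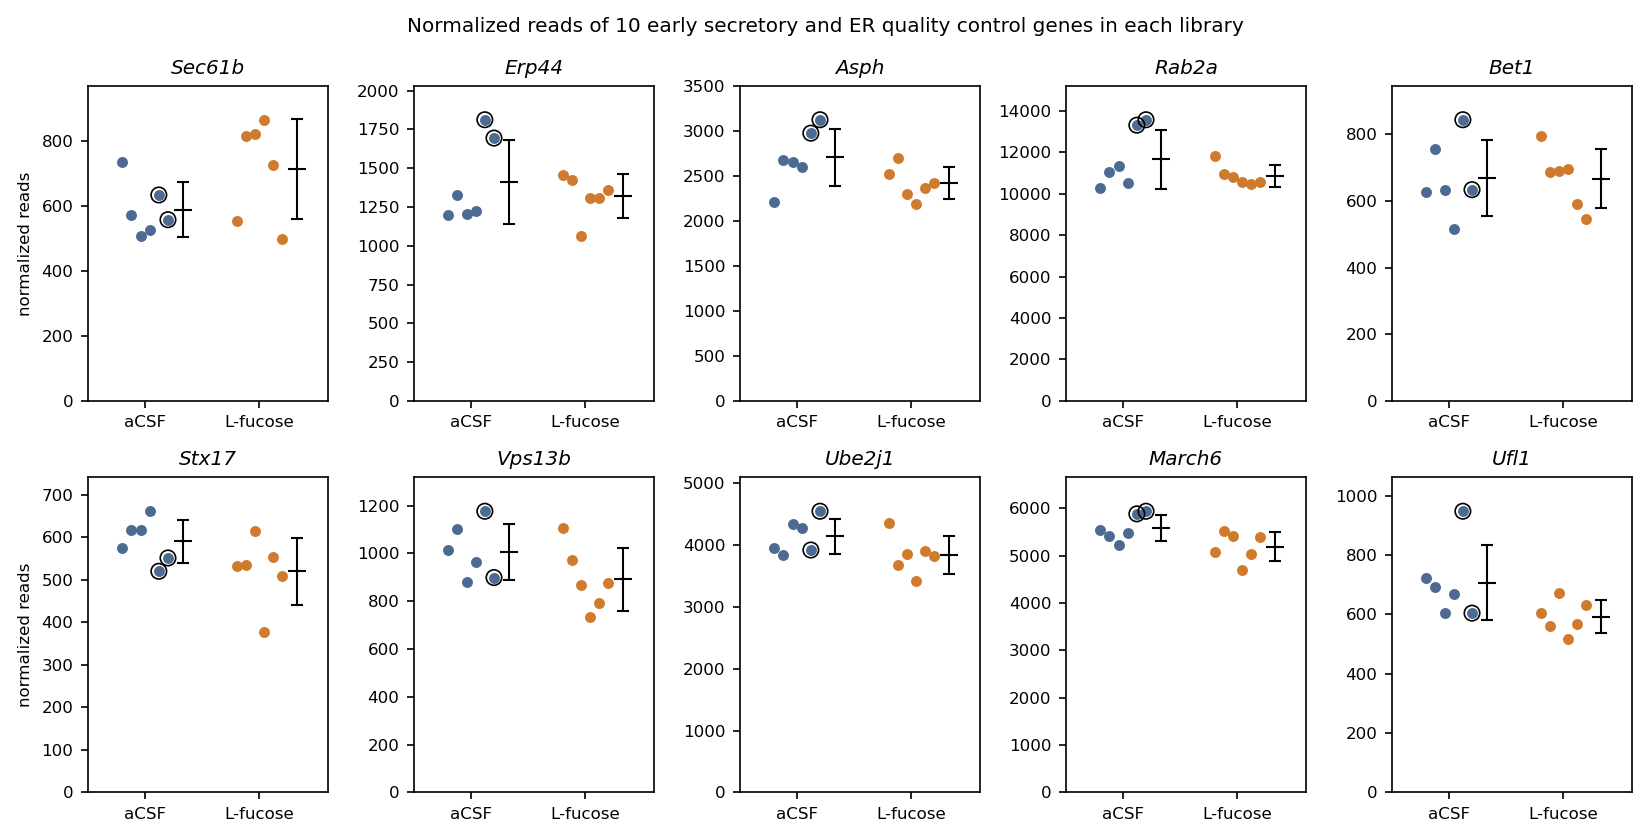
Normalized reads (vertical axes, from 0) of the 10 genes in 6 aCSF (blue) and 6 L-fucose (orange) libraries, in order of replicate number within a group, with the mean and SD in black. Black rings mark aCSF 5 and aCSF 6. The groups overlap for each gene, and Rab2a runs from 10247 to 13561 in aCSF and from 10439 to 11813.5 in L-fucose.

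The groups were compared to ask whether transcripts of this pathway differed with L-fucose. None of the 10 genes passed the test. Sec61b had the highest positive log2 difference, 0.26, and Ufl1 the most negative, -0.24, and the libraries of the groups overlapped for each gene (the groups did not overlap in 0.139% of all rows with L-fucose lower and 0.148% with L-fucose higher). With limma 0 of 10 had an adjusted p under 0.05, as had 0% of the 10787 rows tested, and the smallest adjusted p among the 10 was 0.842. At an unadjusted p under 0.05 there were again 0 of 10, beside 5.96% of all rows and 8.33% of the 348 in register. edgeR, limma-voom and DESeq2 also gave 0 at the adjusted threshold, and at the unadjusted one 0, 0 and 1, the last being Ufl1 in DESeq2. Over 24 alternative settings the smallest adjusted p among the 10 lay between 0.452 and 0.991, with limma and the other tools.

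The log2 difference was negative in 8 of the 10 genes, with a median of -0.11. It was negative in 48% of all tested rows and 60.6% of those in register, whose medians were 0.01 and -0.05. The count depended on scaling and on libraries. Bet1, near 0, made it 9 with edgeR, DESeq2, limma-voom or CPM (reads scaled to the library total), and without aCSF 5 and aCSF 6 it was 6, with a median of -0.07. Without L-fucose 4 the count was 9, with a median of -0.08.

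**Figure D2:**
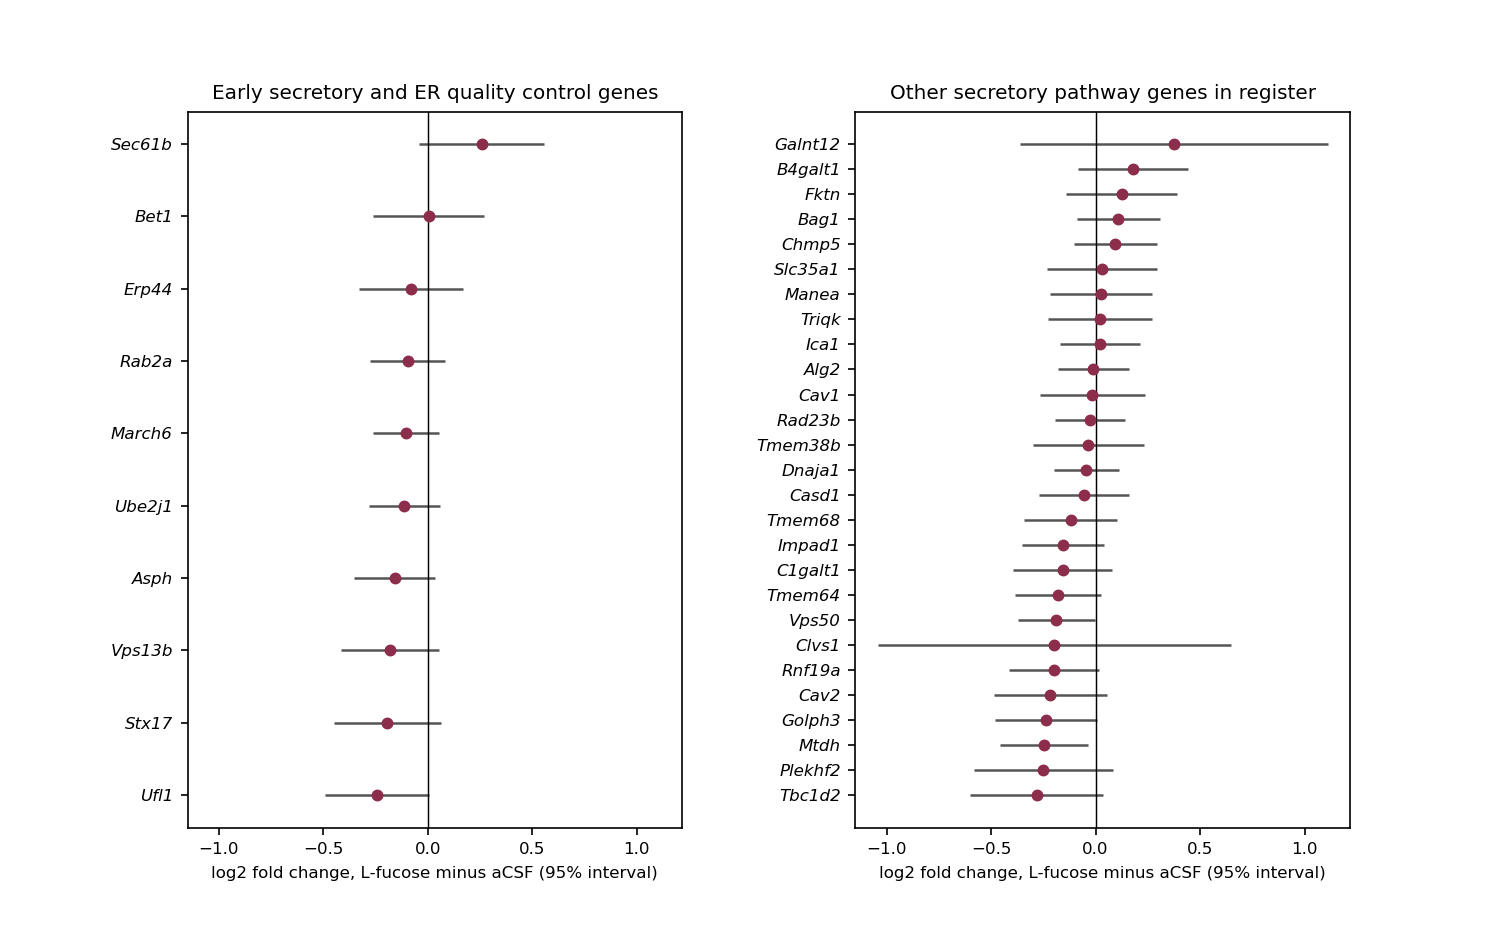
Log2 difference of L-fucose minus aCSF (horizontal axis, points) with 95% intervals (lines) from limma, each side sorted by value. The 10 genes are on the left, and on the right are 27 other genes for vesicle traffic, the ER membrane, folding and degradation, or glycosylation. All 10 intervals on the left include 0, from Ufl1 at -0.24 to Sec61b at 0.26, and on the right those of Mtdh and Vps50 lie below 0.

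Sec61b encodes the beta subunit of the Sec61 channel, a small protein anchored by its tail beside the pore through which nascent chains enter the ER. Its gene (ENSMUSG00000053317) lies on chromosome 4 from 47474658 to 47483242 on the plus strand of GRCm38. Sec61b had 506, 564 and 733 normalized reads in aCSF (lowest, median and highest) and 497, 770 and 864 in L-fucose. The L-fucose libraries were split, with 2, 3 and 4 between 815.0 and 864, above every aCSF library, and 5, 1 and 6 at 725, 554 and 497. Means were 588 ± 83.7 and 713 ± 153 (SD, n = 6 each), a log2 difference of 0.26 ± 0.14 (SE), whose interval ran from -0.04 to 0.56 (limma adjusted p 0.848). Its upper bound was the only one among the 10 genes above 0.5. Leaving out 1 library moved the value between 0.20 and 0.36, the latter without L-fucose 6.

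Only 324 bases separate Sec61b from Alg2, which runs the opposite way on the minus strand and encodes a mannosyltransferase that builds the lipid-linked sugar chain for N-glycosylation. Alg2 had 5708 ± 544 in aCSF and 5651 ± 283 in L-fucose, a log2 difference of -0.01 with an interval from -0.18 to 0.16. The intervals of these neighbours overlap, and the difference between them was not tested. The 250 bases before the Sec61b start, taken from RefSeq's GRCm38.p6 table, are shown because they fill most of the space between the genes (chr4:47474411-47474660, plus strand, no capitals).
Sec61b: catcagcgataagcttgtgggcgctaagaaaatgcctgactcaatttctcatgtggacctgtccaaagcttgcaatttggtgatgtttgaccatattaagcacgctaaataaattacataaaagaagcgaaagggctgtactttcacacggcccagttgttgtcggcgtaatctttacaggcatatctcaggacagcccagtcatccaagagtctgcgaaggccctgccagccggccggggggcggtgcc

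Of the lumenal proteins, ERp44 is a member of the protein disulfide isomerase family that binds clients through a thiol in the early Golgi and returns them to the ER. Erp44 (ENSMUSG00000028343, chromosome 4 from 48193323 to 48279558, minus strand) had 1197, 1276.5 and 1813 normalized reads in aCSF and 1063, 1335 and 1458 in L-fucose. Its means were 1411 ± 273 and 1321 ± 140, a log2 difference of -0.08 with an interval from -0.33 to 0.17. In 5 of 6 L-fucose libraries Erp44 lay above the aCSF median although the L-fucose mean was lower. The aCSF mean rested on aCSF 5 and aCSF 6, at 1813 and 1695, while the other aCSF libraries were between 1197 and 1330. Without these libraries the log2 difference was 0.09.

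Asph encodes aspartate beta-hydroxylase, which hydroxylates epidermal growth factor-like domains in the ER lumen, and the same gene gives rise to junctin and junctate, calcium-handling proteins of the ER membrane. Asph (ENSMUSG00000028207, chromosome 4 from 9448069 to 9669344, minus strand) had 2214, 2669 and 3130 in aCSF and 2196.5, 2395 and 2708 in L-fucose. The log2 difference was -0.16 with an interval from -0.35 to 0.04, and -0.07 without aCSF 5 and aCSF 6, again the highest aCSF libraries at 2981 and 3130. Of its exonic bases 14.7% are shared, mostly with Clvs1 on the other strand, and no strand setting is stated, so reads of the pair cannot be told apart there. A row-level count does not separate the enzyme from its shorter products.

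Rab2a, Bet1, Stx17 and Vps13b act on membranes between the ER, the Golgi and other compartments. Rab2a encodes a small GTPase of the ER-Golgi intermediate compartment. Its gene (ENSMUSG00000047187, chromosome 4 from 8535644 to 8607778, plus strand) had 10247, 11166 and 13561 normalized reads in aCSF and 10439, 10675.5 and 11813.5 in L-fucose. The spread was 1423 (SD) in aCSF and 509 in L-fucose, where 5 of 6 libraries fell between 10439 and 10953. The log2 difference of Rab2a was -0.10 with an interval from -0.28 to 0.08, and without aCSF 5 and aCSF 6, at 13298 and 13561, it was 0.01.

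Bet1 encodes a SNARE, one of the coiled proteins that fuse vesicles from the ER with their target membrane. Bet1 (ENSMUSG00000032757, chromosome 6 from 4076899 to 4086972, minus strand) had 516, 634 and 844 in aCSF and 546, 688 and 796 in L-fucose. Its means of 668 ± 115 and 667 ± 88.1 gave a log2 difference of 0.0044 with an interval from -0.26 to 0.27. Its sign turned with 13 of 24 alternatives, and values ran from -0.07 to 0.08.

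Syntaxin 17, the product of Stx17, is a SNARE found on the ER and on completed autophagosomes, which it fuses with lysosomes. Stx17 (ENSMUSG00000061455, chromosome 4 from 48124915 to 48186507, plus strand) ends 6.8 kb from Erp44. It had 521, 596 and 662 in aCSF and 377, 534 and 615 in L-fucose, a log2 difference of -0.19 with an interval from -0.45 to 0.06. L-fucose 4 was the lowest library at 377, and without it the value was -0.10. Stx17 differed from Erp44, Asph and Rab2a in that aCSF 5 and aCSF 6 were its lowest aCSF libraries, at 521 and 552, and without them its log2 difference was -0.26.

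Vps13b encodes a very long protein that carries lipids between membranes at the Golgi, and its loss causes Cohen syndrome. Vps13b (ENSMUSG00000037646, chromosome 15 from 35371160 to 35931229, plus strand) had 881, 990 and 1177 in aCSF and 734, 872 and 1105 in L-fucose, a log2 difference of -0.18 with an interval from -0.42 to 0.06. In L-fucose, library 1 was high at 1105 and libraries 4 and 5 were low at 734 and 793. It shares 2.9% of its exonic bases with Cox6c and another neighbour on the other strand.

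Ube2j1, March6 and Ufl1 encode ubiquitin-type enzymes at the ER membrane. Ube2j1 encodes the ubiquitin-conjugating enzyme that serves ER-associated degradation (ENSMUSG00000028277, chromosome 4 from 33031416 to 33052363, plus strand). It had 3844, 4116 and 4548 normalized reads in aCSF and 3424, 3839 and 4359 in L-fucose, a log2 difference of -0.11 with an interval from -0.28 to 0.06. In 5 of 6 L-fucose libraries Ube2j1 was below the aCSF median, and L-fucose 1 was above it.

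March6, now also called Marchf6, encodes a ubiquitin ligase with many membrane spans whose substrates include enzymes of sterol synthesis. March6 (ENSMUSG00000039100, chromosome 15 from 31455891 to 31531053, minus strand) had 5229, 5512 and 5938 in aCSF and 4705, 5234 and 5522 in L-fucose. It varied least of the 10 genes, with a residual SD of 0.079 on the log2 scale against a median of 0.42 over all tested rows, and only 0.195% of those rows had a smaller one. Its log2 difference was -0.11 ± 0.08 (SE), and its interval, from -0.26 to 0.05, still included 0.

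Ufl1 encodes the ligase that joins the ubiquitin-like protein UFM1 to its targets, among them a protein of ribosomes docked on the ER. Ufl1 (ENSMUSG00000040359, chromosome 4 from 25248600 to 25281821, minus strand) had 604, 681 and 948 in aCSF and 516, 586 and 673 in L-fucose. All 6 L-fucose libraries lay below the aCSF median, yet the groups overlapped, since aCSF 3 and aCSF 6 were at 605 and 604. Means were 707 ± 127 and 592 ± 55.9 (SD, n = 6 each). The log2 difference was -0.24 ± 0.12 (SE), its interval running from -0.49 to 0.01 (limma unadjusted p 0.057, adjusted p 0.842). Without aCSF 5, at 948, it was -0.155.

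**Figure D3:**
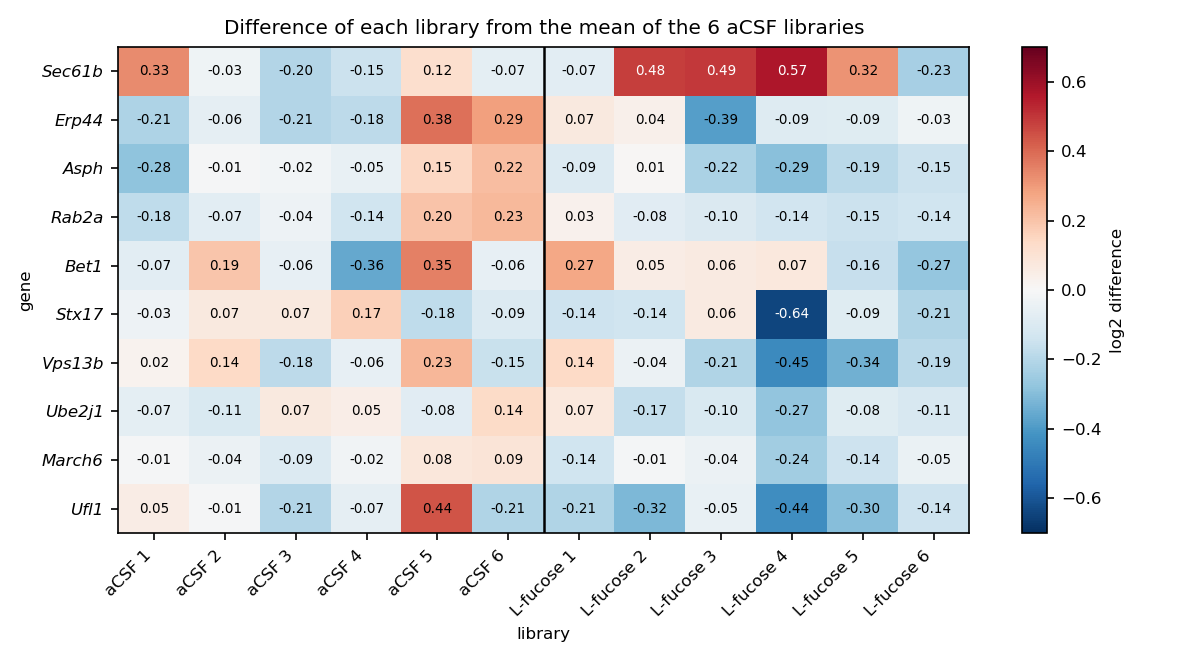
Log2 difference of each library (columns) from the mean of the 6 aCSF libraries for each of the 10 genes (rows), with the value in each cell, red above and blue below. aCSF 5 is above the mean in 8 genes and L-fucose 4 below it in 8, the exceptions in L-fucose 4 being Sec61b at 0.57 and Bet1 at 0.075.

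Across libraries the genes moved partly together. aCSF 5 had 8 of 10 genes above the aCSF mean, with a median log2 difference of 0.17, and L-fucose 6 had 0 of 10, with a median of -0.15. L-fucose 4 had the lowest median, -0.26, with Sec61b at its highest there and Asph, Stx17, Vps13b, Ube2j1, March6 and Ufl1 each at their lowest of the 12 libraries. aCSF 5 and aCSF 6 also had the highest mitochondrial shares of counted reads, 41.94% and 44.85% against 27.58% to 40.52% elsewhere, and the fewest rows above 0, 14340 and 14856. The part of these library features in the fold changes was not tested.

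**Figure D4:**
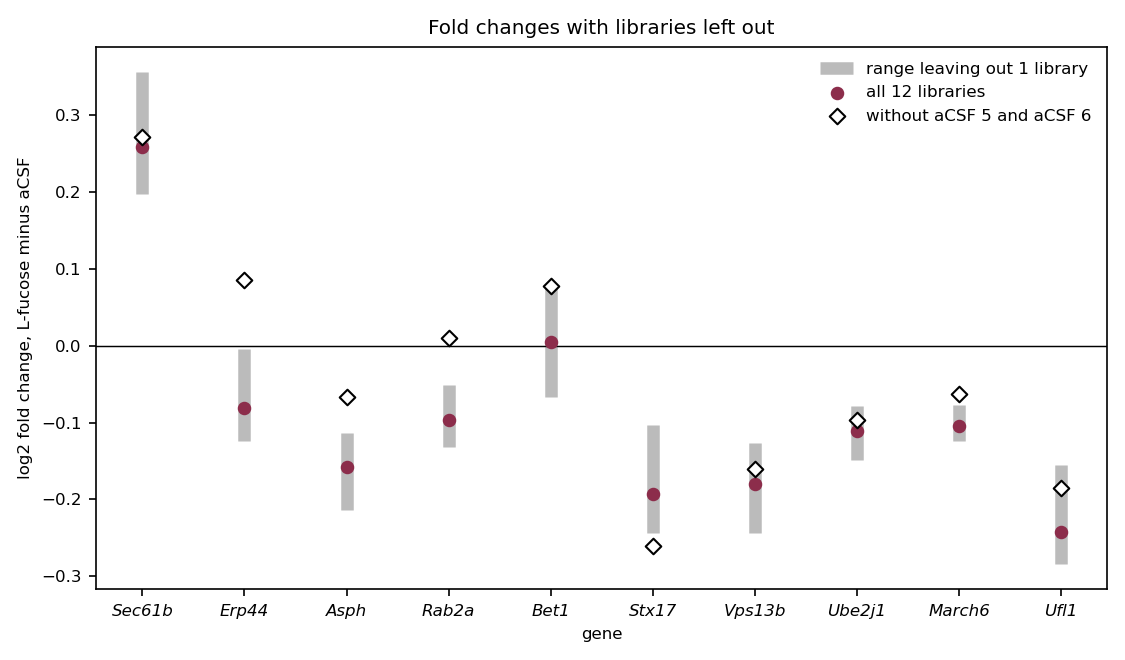
Log2 difference of L-fucose minus aCSF (vertical axis) for the 10 genes with all 12 libraries (red points), its range when each library is left out (grey bars) and its value without aCSF 5 and aCSF 6 (open diamonds). Erp44 and Rab2a cross 0 to 0.09 and 0.01 without these libraries, and Sec61b is between 0.20 and 0.36 throughout.

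The precision of the 10 genes was better than that of most rows. All 10 were also high in level, from Stx17, above 78.45% of tested rows, to Rab2a, above 99.26%. The part of level in this precision was not tested. The 95% interval lay within 1 log2 unit either way for 10 of 10 genes and within 0.5 for 9 of 10, Sec61b being the exception at an upper bound of 0.56. Within 0.5 were 32.3% of all tested rows and 54.6% of those in register. Depth behind these values ran from 320 reads, for Stx17 in 1 library, to 18010, for Rab2a.

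A list of 30 further genes was chosen by function, for vesicle traffic, the ER membrane, folding and degradation, or glycosylation. Not all of them act early in the secretory pathway, and Cav1 and Cav2 are also the endothelial markers above. Of the 30 genes 27 lay in register, all of them tested. With limma 0 of the 27 passed at the adjusted threshold, 9 had positive and 18 negative differences, and the median was -0.04. At an unadjusted p under 0.05 there were 0 higher and 2 lower, beside 3.17% and 2.79% of all rows and, for lower, 6.9% of rows in register. The genes for vesicle traffic were mostly negative, 7 of 9 with a median of -0.20, beside 60.6% negative among rows in register. Golph3, which helps form vesicles at the Golgi and shares 13.8% of its exonic bases with a gene on the other strand, was at -0.24 (interval -0.48 to 0.01), Vps50, a tethering subunit of endosomes and dense-core vesicles, at -0.19 (-0.37 to -0.0009) and the ESCRT-III subunit Chmp5 at 0.09. Without aCSF 5 and aCSF 6 these were at -0.07, -0.13 and 0.19.

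Of 5 genes for ER membrane proteins, Mtdh had the smallest unadjusted limma p, 0.023 (adjusted p 0.827). It had 2336 ± 371 in aCSF and 1952 ± 121 in L-fucose, a log2 difference of -0.25 that was -0.115 without aCSF 5 and aCSF 6, where it was highest at 2923.5 and 2639. Tmem64, an ER calcium regulator, was at -0.18. The chaperone partner Dnaja1 and the proteasome shuttle Rad23b, with 10982 ± 714 and 8429 ± 757 in aCSF, were at -0.04 and -0.03 (0.04 for Rad23b without aCSF 5 and aCSF 6), and 3 of 4 folding and degradation genes were negative. Glycosylation genes were divided, 5 positive and 4 negative with a median of 0.03, among them Alg2 and the Golgi phosphatase gene Impad1 at -0.16.

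Promoters were read for letters known from the unfolded protein response, the program by which ER stress raises chaperone and degradation genes. The RefSeq table, which covers 250 bases before to 50 after a start, held windows for 7 of the 10 genes. A set of 4 motifs is given, kept from 15 patterns looked at on both strands, of which 5 matched at least 1 of the 7 genes. The 15 patterns were not all distinct. The ATF4 site was entered once for each strand, and some shorter patterns lay within longer ones, so the same site could count more than once. The ER stress element, CCAAT and CCACG with any 9 bases between them, was in 0 of the 7 genes and 0.119% of all 32851 windows, ERSE-II, ATTGG and CCACG with any 1 base between them, in 0 and 0.0365%, and the ATF4 site TGATGCAA in 0 and 0.895%. The unfolded protein response element TGACGTGG was in 1, Ube2j1, and in 0.676% of windows. The counts are of genes, which had 8 windows, while the shares are of windows. The Ube2j1 window was 78.7% G or C with 52 CG pairs, against medians of 52.7% and 7 over all windows. The element itself holds a CG pair, and the part of base content in this match was not tested. The 250 bases before the Ube2j1 start (chr4:33031130-33031379, plus strand, GRCm38.p6) are shown with this match in capitals, read on the opposite strand and 68 to 61 bases before the start.
Ube2j1: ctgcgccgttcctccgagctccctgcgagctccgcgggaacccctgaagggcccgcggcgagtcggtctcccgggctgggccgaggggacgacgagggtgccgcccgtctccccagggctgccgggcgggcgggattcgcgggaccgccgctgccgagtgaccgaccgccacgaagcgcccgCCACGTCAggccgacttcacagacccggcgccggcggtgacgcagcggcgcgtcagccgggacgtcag

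The match is a description of letters. Ube2j1 itself had a log2 difference of -0.11 with an interval that included 0, as given above, and the Sec61b stretch printed earlier has none of these motifs.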

How the data were processed

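RNA from 12 brain section libraries, 6 with aCSF and 6 with L-fucose, was selected with poly-T beads, then copied from random hexamers, per the labels' protocols. The submitters' processing notes name DESeq2 2.11.40.8, the aligner HISAT2 2.2.1, the counter featureCounts 2.0.3, the trimmer Trimmomatic 0.39 and build mm10. The sources used here name no annotation release or strand setting. The authors deposited a normalized signal, gene reads divided by 1 size factor per library, as found from the values: multiplied by its library's factor, 100% of them came within 0.01 reads of a whole number (largest deviation 0.00078), and size factors recomputed with DESeq2 matched within a relative 3.93e-10. The recovered reads served the edgeR, limma-voom and DESeq2 alternatives.

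Identifiers were matched to GENCODE M21 (GRCm38), which gave 52073 of 56923 a symbol. Regions in register were those of earlier work on these data, bounded by position, and the check of displacement and short exons was made anew. Rows reaching 10 in 6 or more libraries entered limma on log2(value + 1), with treatment as its only term and a trend on level, two-sided, with Benjamini-Hochberg adjustment over all 10787 rows, a threshold of 0.05 and 95% intervals. Fold changes on this scale understate those of low rows. The members, the lists, this test and the alternatives were chosen with earlier results of these data known. All 10 genes are named. Of the further list, those with an unadjusted p under 0.05 and the highest 2 of each role by level are named. The motifs and the short-exon check were chosen after values were seen. Replicate numbers were not taken as pairs. The fits were tested on simulated data. R 4.3.3, limma 3.58.1, edgeR 4.0.16, DESeq2 1.42.0 and Python 3.11.15 were used.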

Additional observations from a re-analysis of the deposited data

Results flagged for a closer look

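Of 44 groups of 6 values examined, for the named genes and for library measures, 3 contained 1 value distant from the rest, which is expected by chance in about 5% of groups. Rab2a was 11813.5 in L-fucose 1, while the rest of that group lay between 10439 and 10953. Ufl1 was 948 in aCSF 5 against 604 to 723, and without aCSF 5 its log2 difference was -0.155. Vps50 was 2196.5 in aCSF 5 against 1776 to 1903.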

How the results depend on the processing

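With limma 0 of 10787 rows passed the adjusted threshold, with 643 at an unadjusted p under 0.05. The count was 1 with DESeq2, and 0 with edgeR, limma-voom, CPM of all or of non-mitochondrial reads, pseudocounts of 0.5 and 5, no filter, a filter at 50, each library left out (0 to 0), and without aCSF 5 and aCSF 6. None of the 10 genes passed it in any of these. The count at an unadjusted limma p under 0.05 did move without aCSF 5 and aCSF 6, to 1210 rows. The smallest adjusted limma p was then 0.134, against 0.498 with all 12 libraries.

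Bet1 was at -0.0021 with edgeR, -0.0039 with DESeq2, -0.00038 with limma-voom, -0.00047 with CPM of all reads and -0.021 with those of non-mitochondrial reads. With each library left out it ran from -0.067 to 0.075, Alg2 from -0.044 to 0.020 and Rad23b from -0.069 to 0.0023. Without aCSF 5 and aCSF 6 the log2 differences of Erp44, Rab2a and Rad23b were 0.086, 0.0098 and 0.043. The cause was not tested. The other named genes kept their sign. Of the 10 genes, an unadjusted p under 0.05 was reached by Sec61b without aCSF 1, L-fucose 1 or L-fucose 6, by Ufl1 with DESeq2, with non-mitochondrial CPM and without aCSF 3, aCSF 6 or L-fucose 3, by Asph with the same CPM and without aCSF 1, and by Vps13b without L-fucose 1. Of the other named genes it was reached, in 24 settings, by Mtdh in 20, Golph3 in 8, Vps50 in 7, Impad1 in 2 and Tmem64 in 1.

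With a replicate block 0 rows passed in limma and 0 in edgeR, with 585 and 516 at an unadjusted p under 0.05. Libraries of the same number had correlated deviations of -0.168 to 0.17, 1 of 6 over 0.1, and 1 of 6 pairs correlated best with its own number.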
